A study of Homo sapiens with 8 samples.

Results

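The RAB family of small GTPases was described in HT144 melanoma cells with an empty vector or overexpressing SETDB1 or a mutant of it. A gene was counted as a RAB gene when its symbol in the platform annotation was RAB followed by a number and at most a short suffix. Proteins that bind RABs and carry RAB in their names, such as the RAB11FIP and RAB3GAP genes, were left out. So were an antisense gene and RAB9BP1, whose suffix is longer than the rule allows (12 symbols in all). The rule found 63 RAB genes among the 20044 named genes of the array, read by 88 probes. Of these, 51 were measured, which required a probe detected on at least 2 arrays, among 13974 measured genes in all. The 12 that were not measured were RAB19, RAB25, RAB33A, RAB37, RAB39A, RAB39B, RAB3C, RAB3D, RAB40A, RAB40AL, RAB6C and RAB6D. The chosen probe of 38 RAB genes was detected on all 8 arrays, and 41 of the 51 genes were read by 1 passing probe.

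RAB proteins are molecular switches on membranes: they are active and membrane-bound with GTP, and inactive with GDP. Exchange factors load them with GTP, GTPase-activating proteins end the active state, and GDI proteins draw the inactive form off the membrane, while escort proteins and a prenyltransferase give them their lipid anchor. Each RAB marks certain compartments and recruits effectors there, such as tethers and motors. Pigment cells use RAB32 and RAB38 to bring pigment enzymes to the melanosome, and RAB27A to tie ripe melanosomes to the actin motor MYO5A through MLPH.

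Total RNA was measured on 8 Illumina bead arrays, 1 per sample. SETDB1 OE (2 arrays) was HT144 overexpressing SETDB1, a histone methyltransferase of repressive chromatin, HC/KA-SETDB1 OE (3 arrays) was HT144 overexpressing a mutant SETDB1, and empty vector (3 arrays) was HT144 with the vector alone. HT144 is an established line from a melanoma metastasis, and all groups were labelled as this line. The promoter of the construct, whether lines were clones and the meaning of HC/KA stand in no source used here, and the labels do not call replicates separate cultures, so that a p-value covers the variation among these arrays alone, perhaps a technical one. Values below are normalized log2 intensities of background-corrected signal, and levels are never set against those of another probe. Called genes have an adjusted p under 0.05 over all measured genes (limma). Each log2 fold change is the mean of the group named first minus that of the group named after it.

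The arrays were alike in median intensity (89.0 to 94.4) and in the share of probes detected (44.6% to 45.7%). The background SD used in the correction was 13.7 for SETDB1 OE replicate 1 and 25.9 for empty vector replicate 2, and 4.58 to 6.77 for the other arrays. Of the HC/KA-SETDB1 OE arrays, 2 correlated most with an empty vector array over all genes: replicate 2 at 0.987 with empty vector replicate 3, against 0.961 and 0.978 with its own group, and replicate 1 at 0.970 with empty vector replicate 1, against 0.961 and 0.969 with its own group. The SETDB1 probe gave 8.0 and 7.66 on the arrays labelled SETDB1 OE, 8.32, 8.42 and 9.0 in HC/KA-SETDB1 OE, and 8.25, 8.19 and 8.04 in empty vector. It was lowest on the SETDB1 OE arrays, with a log2 fold change of -0.33 against empty vector (SE 0.24, limma adjusted p = 0.692). All HC/KA-SETDB1 OE arrays were above all empty vector arrays, with a log2 fold change of 0.42 that did not pass (SE 0.22, adjusted p = 0.463). The place of the probe relative to the construct is unknown here, so it checks nothing. SETDB1 OE below means the arrays labelled so. Of 8 melanocyte markers, 7 were measured (DCT was not). Their summed linear level was 6338 to 6533 in SETDB1 OE, 7601 to 12294 in HC/KA-SETDB1 OE and 13105 to 19961 in empty vector. PMEL and MLANA carried the lower sum of HC/KA-SETDB1 OE against empty vector, with log2 fold changes of -1.80 and -0.98, while the other 5 were above 0 there, by at most 0.21. Of 6 fibroblast markers, 5 were measured and 2 were detected on all 8 arrays, with a summed level of 869 to 1665 in SETDB1 OE, 2213 to 2466 in HC/KA-SETDB1 OE and 1076 to 1806 in empty vector, and DCN was not detected in HC/KA-SETDB1 OE. Only COL1A2 of these was above 0 in HC/KA-SETDB1 OE vs empty vector (1.24), and the other 4 were between -1.42 and -0.28. Measured were 3 of 6 blood, 1 of 6 epithelial and 2 of 4 endothelial markers, with PTPRC, EPCAM and PECAM1 among those not measured. DCN rose and CD14 fell in SETDB1 OE vs HC/KA-SETDB1 OE, and no other marker of these other cell types was called. Their part in the RAB results was not tested.

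Among the 51 measured RAB genes, RAB27B rose in SETDB1 OE against empty vector (4.15-fold after background correction), and it was the only RAB gene called there. Against HC/KA-SETDB1 OE, RAB27B rose as well, and RAB26 (6.67-fold) and RAB6B (3.09-fold) fell. The sizes for RAB26 and RAB6B depended on the setting. Over 19 alternatives, the log2 fold change ranged from -3.42 to -1.86 for RAB26 and from -1.93 to -1.05 for RAB6B. Without background correction, RAB6B was -1.05 and did not pass (limma adjusted p = 0.0642). The RAB27B probe was near background in HC/KA-SETDB1 OE, where 1 of 3 arrays detected it, so the size of that difference is uncertain: it was 2.59 on the log2 scale with background correction and 1.14 without. No RAB gene was called between HC/KA-SETDB1 OE and empty vector. Each pair of these comparisons shares the arrays of a group, so their values are given side by side and are not independent. In bulk RNA, fewer cells with a transcript and less of it per cell cannot be told apart.

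In SETDB1 OE vs empty vector, 1 of 51 RAB genes was called, against a background of 0.265% of all measured genes (0.2% higher and 0.0644% lower). At an unadjusted p under 0.05 there were 10 RAB genes, or 19.6%, against 10.8% of all genes. Of these, 4 were higher (RAB27B, RAB21, RAB7B and RAB11B, background 5.14%) and 6 were lower (RAB17, RAB26, RAB6B, RAB38, RAB40B and RAB9B, background 5.69%). The arrays of the groups did not overlap for 8 RAB genes that were higher, a share of 15.7% that equals the background of 15.7%, and for 9 that were lower (background 16.4%). In HC/KA-SETDB1 OE vs empty vector, 0 of 51 were called by limma (background 0.322%), and 6 had an unadjusted p under 0.05 (11.8%, background 12.5%), 2 of them higher (background 6.46%) and 4 lower (background 6.07%). There, 7 RAB genes were higher and 4 lower without overlap (backgrounds 8.48% and 8.38%). With the replicate number as a block, 0 RAB genes were called in that comparison too, while the count over all genes was 127 rather than 45. In SETDB1 OE vs HC/KA-SETDB1 OE, 3 of 51 were called (5.88%, background 4.34%, or 2.08% higher and 2.26% lower), and 11 had an unadjusted p under 0.05 (21.6%, background 22.1%), 4 of them higher (background 10.4%) and 7 lower (background 11.7%). There, 6 were higher and 11 lower without overlap (backgrounds 17.8% and 19.1%). The shares called in the last 2 comparisons thus lay near those of all genes.

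The family had no common direction. The median log2 fold change of the 51 genes was 0.0034 in SETDB1 OE vs empty vector, with a range of -1.51 to 2.05, and the median of all genes was -0.0011. It was 0.13 in HC/KA-SETDB1 OE vs empty vector (all genes 0.014), where 32 genes were above 0 and 19 below. It was -0.0037 in SETDB1 OE vs HC/KA-SETDB1 OE (all genes -0.0068). For scale, the median RAB difference of single arrays from the empty vector mean had an SD of 0.069 between arrays of a group.

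**Figure D1:**
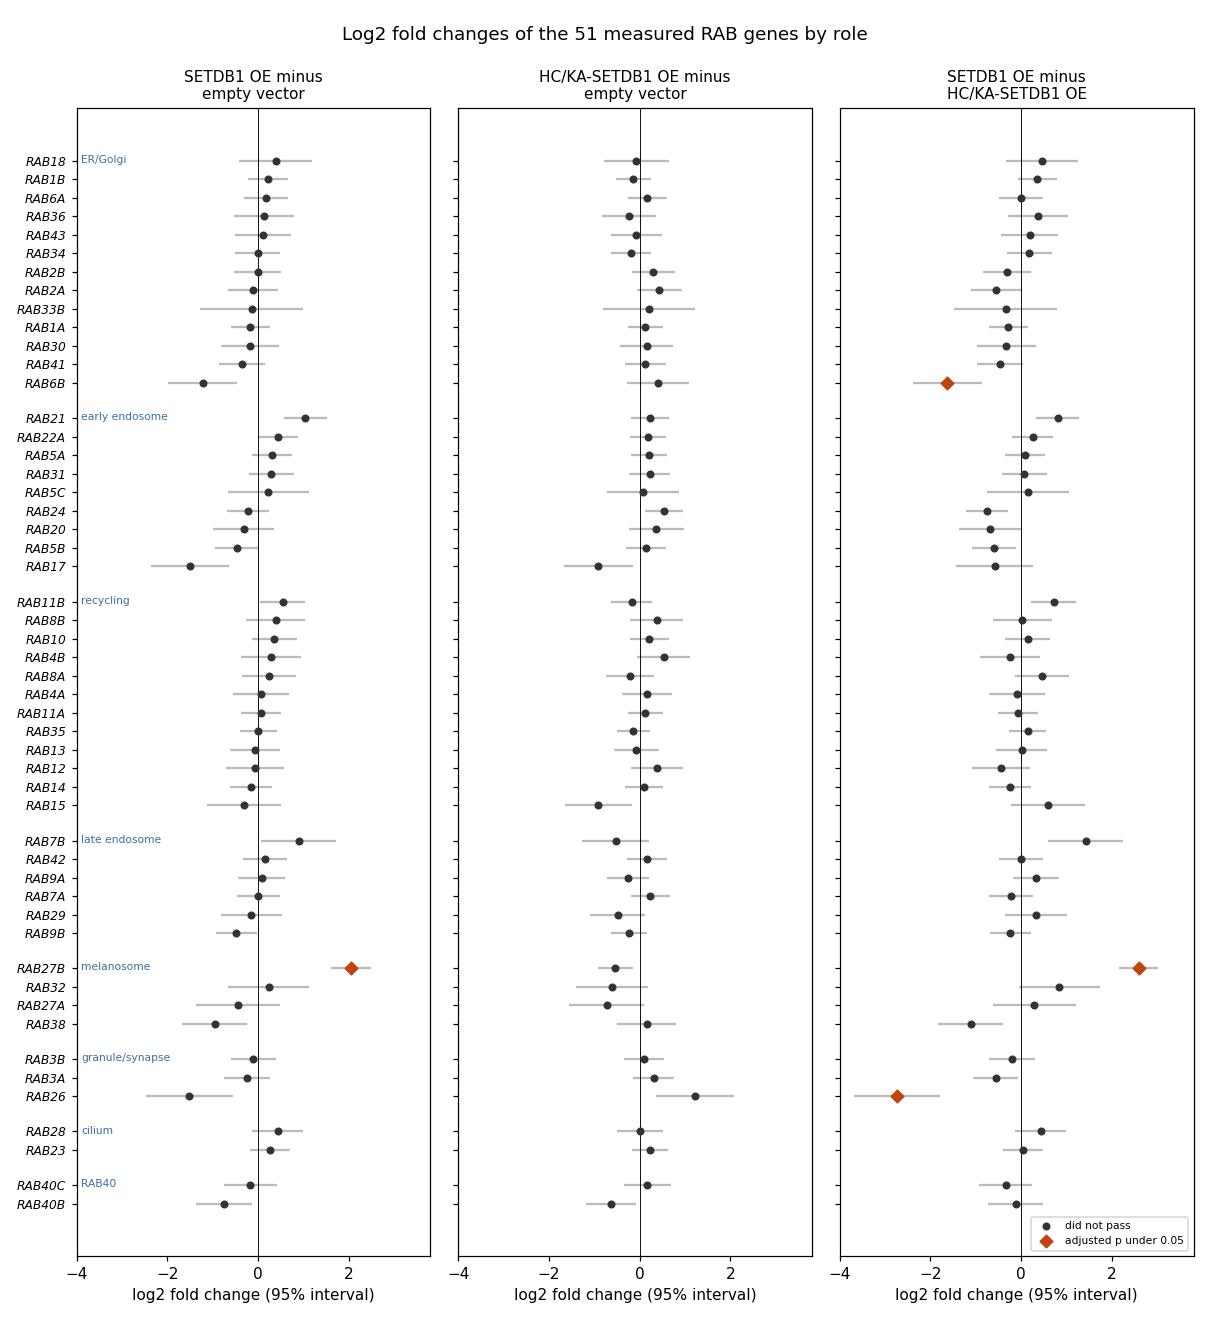
Log2 fold changes of the 51 measured RAB genes (points) with 95% intervals (bars) in the 3 comparisons, grouped by role. Diamonds mark an adjusted p under 0.05: RAB27B in SETDB1 OE minus empty vector, and RAB27B, RAB26 and RAB6B in SETDB1 OE minus HC/KA-SETDB1 OE. All other points are circles, spread on either side of 0.

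The melanosome and lysosome-related organelle group holds RAB27A, RAB27B, RAB32 and RAB38, all 4 of which were measured. RAB27B, on chromosome 18, is a close relative of RAB27A that acts in the release of secretory granules and exosomes. Its level was 7.12 and 7.16 in SETDB1 OE, 4.44, 4.70 and 4.52 in HC/KA-SETDB1 OE, and 5.10, 5.26 and 4.91 in empty vector. Both SETDB1 OE arrays were above all others, all 3 HC/KA-SETDB1 OE arrays were below all empty vector arrays, and no groups overlapped. RAB27B rose by a log2 of 2.05 in SETDB1 OE vs empty vector (SE 0.20, 95% interval 1.61 to 2.49, limma adjusted p = 0.00109) and by 2.59 against HC/KA-SETDB1 OE (SE 0.20, 2.15 to 3.03, adjusted p = 0.000224). In HC/KA-SETDB1 OE vs empty vector its log2 fold change was -0.54 (adjusted p = 0.259).

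The raw intensity behind this was 226.0 and 226.6 in SETDB1 OE, where the mean background was 88.7 and 87.6, and the probe was detected on 1 of 3 HC/KA-SETDB1 OE arrays and on all 3 empty vector arrays. The size of the fold therefore moved with the background correction: without it, the log2 fold changes were 0.94 against empty vector and 1.14 against HC/KA-SETDB1 OE. RAB27B was called in both comparisons under all 19 alternatives, with the highest adjusted p at 0.0347 and 0.00886. Without HC/KA-SETDB1 OE replicate 2, its log2 fold change against that group was 2.66 (adjusted p = 0.000717). Its other 2 probes did not pass the detection filter, so the call rests on probe ILMN_1837428.

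RAB38, which helps carry tyrosinase and TYRP1 to the melanosome, had 9.88 and 9.98 in SETDB1 OE, 11.70, 10.49 and 10.92 in HC/KA-SETDB1 OE, and 11.19, 10.63 and 10.83 in empty vector. The SETDB1 OE arrays were the lowest of all, and the other groups overlapped. Its log2 fold change was -0.96 in SETDB1 OE vs empty vector (SE 0.32, adjusted p = 0.300) and -1.11 vs HC/KA-SETDB1 OE (SE 0.32, adjusted p = 0.079), neither of which passed. The last value passed in 3 of 19 alternatives, such as without HC/KA-SETDB1 OE replicate 2 (-1.39, adjusted p = 0.0208). Without HC/KA-SETDB1 OE replicate 1 it was -0.78 and did not pass (adjusted p = 0.0865).

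RAB32, which shares with RAB38 the delivery of pigment enzymes, had 9.98 and 9.96 in SETDB1 OE, 10.002, 8.90 and 8.48 in HC/KA-SETDB1 OE, and 10.11, 9.86 and 9.23 in empty vector. Its groups overlapped in all 3 comparisons. The log2 fold change was 0.23 in SETDB1 OE vs empty vector (adjusted p = 0.896), -0.61 in HC/KA-SETDB1 OE vs empty vector (adjusted p = 0.534) and 0.84 in SETDB1 OE vs HC/KA-SETDB1 OE (adjusted p = 0.251). The last of these passed in 1 of 19 alternatives, without HC/KA-SETDB1 OE replicate 1 (1.28, adjusted p = 0.0327). Over the alternatives it ranged from 0.52 to 1.28.

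RAB27A, the RAB that holds melanosomes at the cell edge, had 6.06 and 6.71 in SETDB1 OE, 6.79, 5.54 and 5.97 in HC/KA-SETDB1 OE, and 7.53, 6.58 and 6.38 in empty vector. The groups overlapped, with log2 fold changes of -0.44 in SETDB1 OE vs empty vector (adjusted p = 0.769) and -0.73 in HC/KA-SETDB1 OE vs empty vector (adjusted p = 0.454). Its second passing probe, like the chosen one detected on all 8 arrays, gave -1.39 in SETDB1 OE vs empty vector (limma unadjusted p = 0.00202). It gave -0.70 in HC/KA-SETDB1 OE vs empty vector (unadjusted p = 0.0440). Both probes thus had the same sign against empty vector and differed in size for SETDB1 OE. Another passing probe, detected on 3 arrays only, gave 0.20 and 0.051 in these comparisons. Of the 10 RAB genes with more than 1 passing probe, 5 had probes of opposite sign for SETDB1 OE against empty vector. For HC/KA-SETDB1 OE against empty vector 7 did, between the overexpressing groups 6 did, and none of the 10 was called. Any difference in sign counted, however small, such as that of a RAB24 probe at 0.0019 in SETDB1 OE vs empty vector. The share over all genes was not computed, so these counts are no result about RAB genes. The direction of RAB27A in SETDB1 OE vs HC/KA-SETDB1 OE was not settled. It was 0.29 with the chosen probe, -0.69 with the second and -0.09 with the mean of the passing probes.

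The melanocyte markers were read beside these genes. TYR, the pigment enzyme tyrosinase, had 9.48 and 9.50 in SETDB1 OE, 11.05, 10.99 and 11.30 in HC/KA-SETDB1 OE, and 11.32, 10.62 and 11.04 in empty vector. It fell by 1.5 on the log2 scale in SETDB1 OE vs empty vector (limma adjusted p = 0.0382) and by 1.62 vs HC/KA-SETDB1 OE (adjusted p = 0.00772), and it was the only melanocyte marker of 7 called in either. PMEL (-1.92), TYRP1 (-1.76), MITF (-1.13) and MLANA (-0.91) were also lower in SETDB1 OE vs empty vector, without overlap. None of these passed (adjusted p of 0.0848 to 0.300). SOX10 (-0.22) and GPR143 (0.034) overlapped. Against HC/KA-SETDB1 OE, TYRP1 (-1.94), MITF (-1.21) and SOX10 (-0.43) were lower without overlap and did not pass, while PMEL, MLANA and GPR143 overlapped. The part of the marker levels in the RAB values was not tested.

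**Figure D2:**
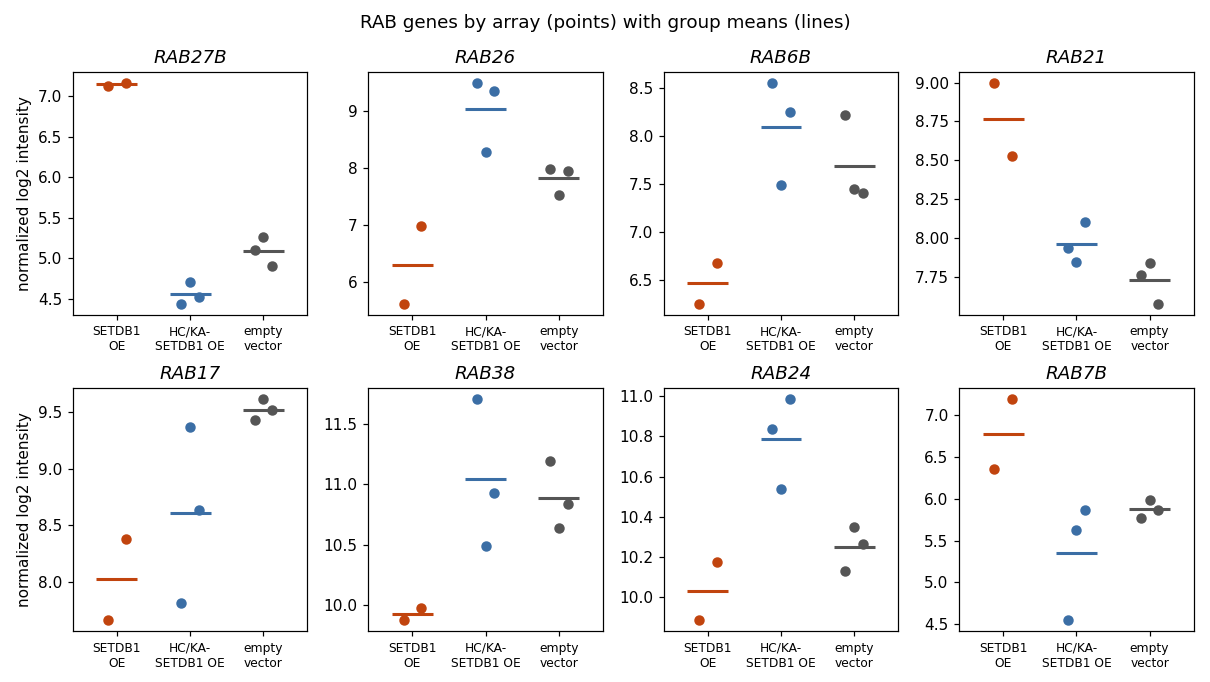
Normalized log2 intensity (y axis, not starting at 0) of 8 RAB genes on each array, by group. Points are arrays and lines are group means. RAB27B was at 7.12 and 7.16 on the SETDB1 OE arrays and at or below 5.26 on every other array, while RAB26 had its lowest values in SETDB1 OE and its highest in HC/KA-SETDB1 OE.

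Of the 7 genes listed for secretory granules and synaptic vesicles, 3 were measured, and RAB26 fell in SETDB1 OE vs HC/KA-SETDB1 OE. RAB26, on chromosome 16, is a RAB of secretory granules that also directs synaptic vesicles to autophagy. It had 5.62 and 6.98 in SETDB1 OE, 9.49, 8.27 and 9.35 in HC/KA-SETDB1 OE, and 7.98, 7.52 and 7.94 in empty vector. The 3 groups did not overlap, with empty vector between the others. RAB26 fell by 2.74 on the log2 scale in SETDB1 OE vs HC/KA-SETDB1 OE (SE 0.43, 95% interval -3.70 to -1.78, limma adjusted p = 0.0104). Against empty vector, the log2 fold change was -1.51 for SETDB1 OE (SE 0.43, adjusted p = 0.215) and 1.22 for HC/KA-SETDB1 OE (SE 0.39, adjusted p = 0.232), and neither passed. The value for SETDB1 OE against empty vector was -0.83 without SETDB1 OE replicate 1 and -2.20 without replicate 2.

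The RAB26 call was present in 18 of 19 alternatives, over which the log2 fold change ranged from -3.42 to -1.86. With the authors' processed log2 values it was -1.955 (adjusted p = 0.0263). Without SETDB1 OE replicate 1, the lower array of its pair, the log2 fold change was -2.05 and did not pass (adjusted p = 0.120). Without HC/KA-SETDB1 OE replicate 2 it was -3.12 (adjusted p = 0.00215). RAB3A and RAB3B, which act in regulated exocytosis, were not detected on either SETDB1 OE array. With undetected arrays raised to the lowest detected signal, the RAB3A mean was 1.34-fold lower in SETDB1 OE than in HC/KA-SETDB1 OE. The RAB3A difference did not pass (adjusted p = 0.176), and its groups did not overlap there. RAB3B overlapped in every comparison.

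Of 18 RABs of the endoplasmic reticulum and Golgi, 13 were measured, and RAB6B fell in SETDB1 OE vs HC/KA-SETDB1 OE. RAB6B, on chromosome 3, is the brain-enriched form of RAB6, which carries cargo back through the Golgi. Its level was 6.25 and 6.68 in SETDB1 OE, 8.55, 7.49 and 8.24 in HC/KA-SETDB1 OE, and 8.21, 7.44 and 7.40 in empty vector. Both SETDB1 OE arrays were below all others, and the other groups overlapped. It fell by 1.63 on the log2 scale vs HC/KA-SETDB1 OE (SE 0.35, 95% interval -2.39 to -0.86, limma adjusted p = 0.0298). The log2 fold change against empty vector was -1.22 for SETDB1 OE (adjusted p = 0.211) and 0.41 for HC/KA-SETDB1 OE (adjusted p = 0.655).

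The call for RAB6B was present in 10 of 19 alternatives. It was lost, among others, when either SETDB1 OE array was left out (-1.42 without replicate 1, -1.84 without replicate 2). It was also lost without HC/KA-SETDB1 OE replicate 3 (-1.55, adjusted p = 0.105) and without empty vector replicate 2 (-1.63, 0.0535). Without background correction (-1.05, 0.0642) and with the authors' processed log2 values (-1.105, 0.0611) it was lost as well. Without HC/KA-SETDB1 OE replicate 2 it was -1.93 (adjusted p = 0.00688). The widely used form, RAB6A, had 6.76 and 6.86 in SETDB1 OE, 7.11, 6.53 and 6.80 in HC/KA-SETDB1 OE, and 6.80, 6.49 and 6.64 in empty vector, and its groups overlapped, while its other passing probe gave 0.53 in SETDB1 OE vs empty vector and 0.57 in HC/KA-SETDB1 OE vs empty vector (unadjusted p = 0.0800 and 0.0402). The other ER and Golgi members lay between -0.35 and 0.39 in SETDB1 OE vs empty vector. RAB2A, needed for traffic between the endoplasmic reticulum and the Golgi, did not overlap between HC/KA-SETDB1 OE and empty vector, with a log2 fold change of 0.44 (adjusted p = 0.458), but its other passing probe gave 0.030 with overlap. RAB1A and RAB1B, which start the same route, had 0.12 and -0.14 there.

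All 9 early endosome RABs were measured and none was called in any comparison by limma, although 2 of them had log2 fold changes beyond 1 in size against empty vector. RAB21, on chromosome 12, moves integrins through early endosomes. It had 9.0 and 8.53 in SETDB1 OE, 7.94, 7.84 and 8.10 in HC/KA-SETDB1 OE, and 7.76, 7.84 and 7.58 in empty vector. Both SETDB1 OE arrays were above all others. The log2 fold change was 1.04 vs empty vector (SE 0.21, adjusted p = 0.0934) and 0.80 vs HC/KA-SETDB1 OE (SE 0.21, adjusted p = 0.0588). Each passed under few alternatives: 1 of 19 for the comparison with empty vector (array weights, adjusted p = 0.0348) and 2 of 19 for the other.

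RAB17, on chromosome 2, is known for endosome traffic in polarised epithelial cells and for filopodia of melanocytes. It had 7.66 and 8.38 in SETDB1 OE, 7.82, 9.37 and 8.63 in HC/KA-SETDB1 OE, and 9.43, 9.61 and 9.52 in empty vector. All arrays of the overexpressing groups were below all empty vector arrays, and those groups overlapped each other. The log2 fold change was -1.5 in SETDB1 OE vs empty vector (SE 0.39, adjusted p = 0.166) and -0.92 in HC/KA-SETDB1 OE vs empty vector (SE 0.34, adjusted p = 0.309). The value of -1.5 passed in 3 of 19 alternatives. These were only the arrays of those groups in the fit (adjusted p = 0.0259), leaving out HC/KA-SETDB1 OE replicate 1 (0.0371) and array weights (0.0348).

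RAB24, a RAB linked to autophagy, had 9.89 and 10.17 in SETDB1 OE, 10.84, 10.54 and 10.99 in HC/KA-SETDB1 OE, and 10.13, 10.35 and 10.26 in empty vector. HC/KA-SETDB1 OE was above the other groups, which overlapped. The log2 fold change was -0.76 in SETDB1 OE vs HC/KA-SETDB1 OE (adjusted p = 0.0699) and 0.54 in HC/KA-SETDB1 OE vs empty vector (adjusted p = 0.282). The first of these passed in 4 of 19 alternatives, such as without HC/KA-SETDB1 OE replicate 2 (-0.88, adjusted p = 0.0360). Without HC/KA-SETDB1 OE replicate 3 it was -0.66 and did not pass (adjusted p = 0.200). Of its 5 passing probes, 4 were lower in SETDB1 OE than in HC/KA-SETDB1 OE and 1 was higher, by 0.41.

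The core early endosome RABs, which run fusion of incoming vesicles, showed small differences. RAB5A had 8.99 and 9.13 in SETDB1 OE, 9.0, 8.94 and 8.97 in HC/KA-SETDB1 OE, and 8.90, 8.52 and 8.87 in empty vector, so both overexpressing groups lay above empty vector without overlap, by 0.30 (adjusted p = 0.646) and 0.21 (adjusted p = 0.696). RAB5B had 10.22 and 10.25 in SETDB1 OE, below all other arrays, with a log2 fold change of -0.60 vs HC/KA-SETDB1 OE (adjusted p = 0.142). RAB5C gave 0.15 in that comparison with its chosen probe and 0.95 with its other passing probe (unadjusted p = 0.00158), so its probes disagreed. RAB22A and RAB31 had 0.44 and 0.29 in SETDB1 OE vs empty vector, each without overlap.

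All 6 late endosome and lysosome RAB genes of the array were measured and none was called. RAB7A, the main RAB of late endosome and lysosome fusion, had 12.02 and 12.13 in SETDB1 OE, 12.38, 12.03 and 12.49 in HC/KA-SETDB1 OE, and 12.30, 11.93 and 11.97 in empty vector. Its groups overlapped in every comparison, and the 95% interval of SETDB1 OE vs empty vector was -0.48 to 0.49 around 0.0075. RAB7B, which acts between late endosomes and the trans-Golgi, had 6.35 and 7.19 in SETDB1 OE, 4.55, 5.62 and 5.87 in HC/KA-SETDB1 OE, and 5.77, 5.99 and 5.86 in empty vector. Both SETDB1 OE arrays were above all others. Its log2 fold change was 1.42 vs HC/KA-SETDB1 OE (SE 0.37, adjusted p = 0.0574) and 0.90 vs empty vector (SE 0.37, adjusted p = 0.418), where it was 1.31 without SETDB1 OE replicate 1 and 0.48 without replicate 2. The value vs HC/KA-SETDB1 OE passed in 3 of 19 alternatives, such as without HC/KA-SETDB1 OE replicate 2 (1.56, adjusted p = 0.0434). Without HC/KA-SETDB1 OE replicate 1 it was 1.02 and did not pass (adjusted p = 0.0532).

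RAB9B, a relative of RAB9A that returns receptors to the trans-Golgi, was not detected on either SETDB1 OE array and was detected on all 3 empty vector arrays. With undetected arrays raised to the lowest detected signal, its mean was 1.27-fold lower in SETDB1 OE than in empty vector. The difference did not pass (adjusted p = 0.434). RAB29, which recruits the kinase LRRK2 to membranes, had log2 fold changes of -0.15 in SETDB1 OE vs empty vector and -0.48 in HC/KA-SETDB1 OE vs empty vector, with overlapping arrays.

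Of 13 recycling and plasma membrane RABs, 12 were measured and none was called. RAB11B, a RAB of the recycling endosome, had 5.10 and 5.56 in SETDB1 OE, 4.57, 4.76 and 4.5 in HC/KA-SETDB1 OE, and 4.56, 4.99 and 4.81 in empty vector. The SETDB1 OE arrays were the highest, by 0.54 vs empty vector (adjusted p = 0.412) and 0.72 vs HC/KA-SETDB1 OE (adjusted p = 0.0949). Its probe was detected on 2, 1 and 2 arrays of SETDB1 OE, HC/KA-SETDB1 OE and empty vector. RAB11A, its more widely studied relative, had 9.93 and 10.29 in SETDB1 OE, 10.06, 10.16 and 10.31 in HC/KA-SETDB1 OE, and 10.09, 10.05 and 10.001 in empty vector, with overlap throughout.

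RAB15, which slows traffic out of early endosomes, had 5.98 and 6.35 in SETDB1 OE, 4.84, 6.28 and 5.60 in HC/KA-SETDB1 OE, and 6.11, 6.61 and 6.74 in empty vector. HC/KA-SETDB1 OE replicate 2 was above the lowest empty vector array, and the others of its group were below. The log2 fold change was -0.91 in HC/KA-SETDB1 OE vs empty vector (SE 0.33, adjusted p = 0.294). RAB4B, of rapid recycling, had 0.53 in that comparison (adjusted p = 0.453), without overlap, but its other passing probe gave -0.15 with overlap, so its direction is not settled. The 12 recycling RABs lay between -0.32 and 0.54 in SETDB1 OE vs empty vector.

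The cilium RABs RAB23 and RAB28 had 0.27 and 0.44 in SETDB1 OE vs empty vector. RAB23, which restrains Hedgehog signalling, did not overlap with empty vector in either overexpressing group (0.27, adjusted p = 0.687, and 0.23, adjusted p = 0.659). Its other passing probe gave 0.65 in SETDB1 OE vs empty vector (unadjusted p = 0.0286) and -0.012 in HC/KA-SETDB1 OE vs empty vector, with overlap in the last. In the RAB40 subfamily, whose members carry a SOCS box that joins them to ubiquitin ligases, 2 of 4 were measured. RAB40B had 6.99 and 7.37 in SETDB1 OE, 7.27, 7.19 and 7.43 in HC/KA-SETDB1 OE, and 8.48, 7.56 and 7.76 in empty vector. Both overexpressing groups lay below empty vector without overlap, with log2 fold changes of -0.76 (adjusted p = 0.346) and -0.64 (adjusted p = 0.323), and neither passed.

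**Figure D3:**
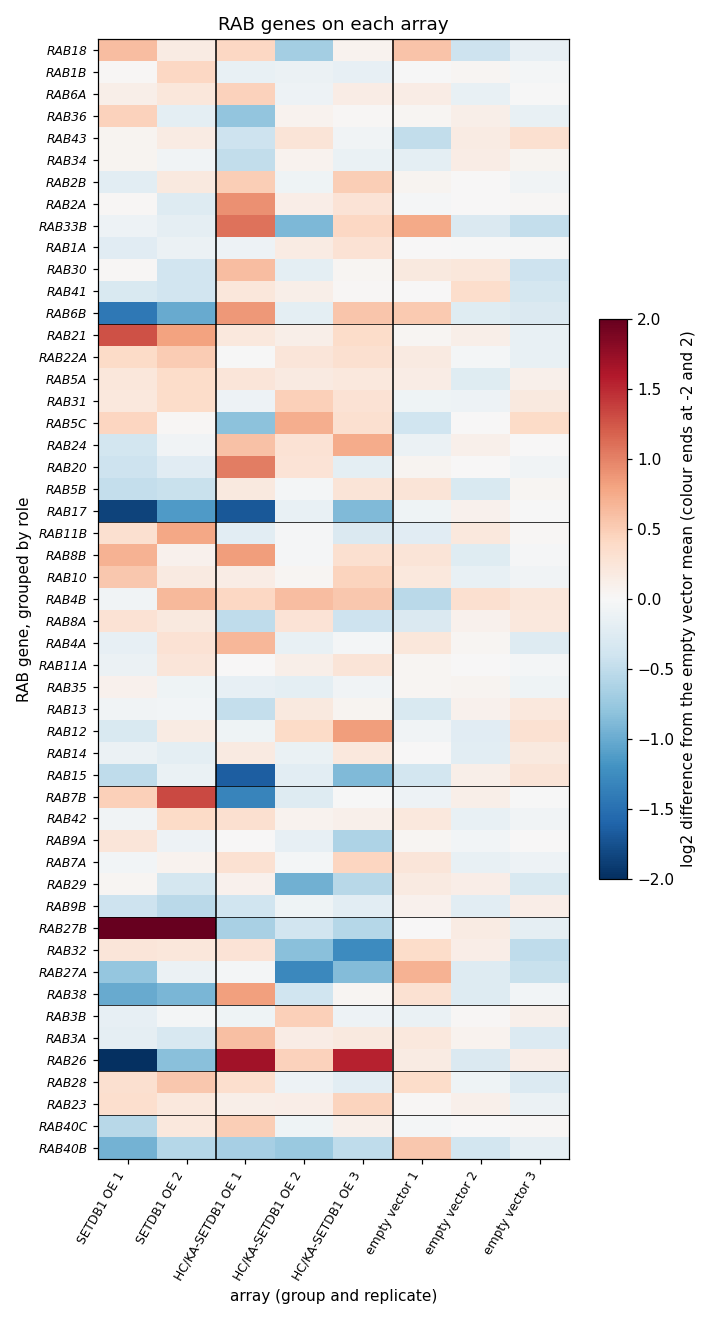
Log2 difference of each of the 51 measured RAB genes (rows, by role) from its empty vector mean on each of the 8 arrays (columns: SETDB1 OE, HC/KA-SETDB1 OE, empty vector). Colour ends at -2 and 2. RAB27B is high on both SETDB1 OE arrays, and RAB26 is low there and high in HC/KA-SETDB1 OE. RAB17 is low on both SETDB1 OE arrays and uneven in HC/KA-SETDB1 OE, where replicate 2 lay near empty vector (9.37 against a mean of 9.52).

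The genes that load, stop, anchor and read RABs were described from 4 lists. In SETDB1 OE vs empty vector and in HC/KA-SETDB1 OE vs empty vector, 0 of the measured genes of these lists were called by limma. At an unadjusted p under 0.05, the first of these had 0 higher and 1 lower of 6 core machinery genes, 0 and 5 of 34 exchange factors, 2 and 4 of 33 GTPase-activating proteins, and 0 and 3 of 43 effectors. Over the 4 lists that was 1.72% higher and 11.2% lower of 116 genes (backgrounds 5.14% and 5.69%). In HC/KA-SETDB1 OE vs empty vector, 6 were higher and 10 lower at that p (5.17% and 8.62%, backgrounds 6.46% and 6.07%), and in SETDB1 OE vs HC/KA-SETDB1 OE, 8 and 17 (6.9% and 14.7%, backgrounds 10.4% and 11.7%). The direct comparison, SETDB1 OE vs HC/KA-SETDB1 OE, called 3 of the 116 genes: SYTL2 rose, and RABAC1 and TRAPPC9 fell. This share of 2.59% was below the background of 4.34%, so it is no result about the lists.

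SYTL2 encodes an effector that binds RAB27 proteins and docks vesicles at the plasma membrane. It had 8.09 and 8.28 in SETDB1 OE, 7.14, 7.0 and 7.31 in HC/KA-SETDB1 OE, and 8.08, 7.97 and 7.47 in empty vector. SETDB1 OE lay just above empty vector, HC/KA-SETDB1 OE lay below it, and no groups overlapped. SYTL2 rose by 1.03 in SETDB1 OE vs HC/KA-SETDB1 OE (SE 0.23, adjusted p = 0.0364), and its values against empty vector were 0.35 for SETDB1 OE (adjusted p = 0.648) and -0.69 for HC/KA-SETDB1 OE (adjusted p = 0.218).

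TRAPPC9, a subunit of a TRAPP complex that acts as an exchange factor at the Golgi, had 4.95 and 5.08 in SETDB1 OE, 6.11, 6.0 and 6.52 in HC/KA-SETDB1 OE, and 5.92, 6.07 and 6.29 in empty vector. Its lowest arrays were those of SETDB1 OE. It fell by 1.19 on the log2 scale vs HC/KA-SETDB1 OE (SE 0.22, adjusted p = 0.0193), and its log2 fold change vs empty vector was -1.08 (adjusted p = 0.0934). RABAC1, a receptor for prenylated RABs on Golgi membranes, had 8.56 and 9.28 in SETDB1 OE, 10.46, 9.96 and 9.88 in HC/KA-SETDB1 OE, and 9.23, 9.72 and 9.73 in empty vector. It fell by 1.18 vs HC/KA-SETDB1 OE (SE 0.29, adjusted p = 0.0466). The 3 calls were sensitive to the arrays used: 0 genes of the lists were called when either SETDB1 OE array was left out or without HC/KA-SETDB1 OE replicate 3, and 9 without HC/KA-SETDB1 OE replicate 2.

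Among the RAB27 effectors of pigment cells, MLPH, which bridges RAB27A to the motor, had 8.49 and 8.98 in SETDB1 OE, 10.21, 8.84 and 9.61 in HC/KA-SETDB1 OE, and 8.91, 8.84 and 8.47 in empty vector. Its groups overlapped, and no comparison passed. MYO5A, the motor itself, had 8.06 and 8.24 in SETDB1 OE, 7.96, 7.86 and 7.68 in HC/KA-SETDB1 OE, and 8.80, 8.68 and 8.37 in empty vector. Both overexpressing groups lay below empty vector, with log2 fold changes of -0.47 for SETDB1 OE (adjusted p = 0.452) and -0.79 for HC/KA-SETDB1 OE (adjusted p = 0.123). HPS4, of the complex that activates RAB32 and RAB38, had -0.62 in SETDB1 OE vs empty vector (adjusted p = 0.398), and its partner HPS1 had -0.60 (adjusted p = 0.508).

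Several other partners had values past 0.6 in size and did not pass. TBC1D7, known as a subunit of the TSC complex, had 10.45 and 10.40 in SETDB1 OE, 11.88, 10.82 and 11.39 in HC/KA-SETDB1 OE, and 11.97, 11.32 and 11.27 in empty vector, with -1.10 in SETDB1 OE vs empty vector (adjusted p = 0.221). TBC1D16, a GTPase-activating protein for RAB4A, had -0.75 in SETDB1 OE vs empty vector (adjusted p = 0.221) and -0.51 in HC/KA-SETDB1 OE vs empty vector (adjusted p = 0.309). TBC1D2, which acts on RAB7, had 0.90 in SETDB1 OE vs empty vector (adjusted p = 0.211), both arrays above all others. GOLGA2, a Golgi tether bound by RAB1, had 7.01 and 7.03 in SETDB1 OE, 7.84, 7.67 and 7.81 in HC/KA-SETDB1 OE, and 7.06, 6.86 and 7.16 in empty vector. HC/KA-SETDB1 OE was above the other groups, with a log2 fold change of 0.75 vs empty vector (adjusted p = 0.120). RILPL1, an effector recruited by phosphorylated RABs, had -1.54 in SETDB1 OE vs HC/KA-SETDB1 OE (SE 0.42, adjusted p = 0.062).

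The promoters of the RAB genes with the lead values are shown to give the sequence around each start site. RefSeq promoters on GRCh38.p14, running 250 bases before to 50 after the annotated start, were held for 51 of the 63 RAB genes. RAB26 was among the 12 without one. Those of RAB27B and RAB6B, both called, hold none of 3 motifs searched on either strand: CACGTG, the E-box; CATGTG, the core of the M-box; and TGANTCA, the AP-1 site with a free middle base. RAB21 holds CACGTG, and RAB17 holds CATGTG on the opposite strand, both shown in capitals.
RAB27B promoter, chr18:54717607-54717906, plus strand: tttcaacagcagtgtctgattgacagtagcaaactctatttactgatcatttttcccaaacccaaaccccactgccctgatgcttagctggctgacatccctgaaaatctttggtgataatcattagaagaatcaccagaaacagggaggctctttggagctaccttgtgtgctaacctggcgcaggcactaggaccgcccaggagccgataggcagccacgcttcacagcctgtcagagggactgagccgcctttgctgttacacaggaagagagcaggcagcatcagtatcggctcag
RAB6B promoter, chr3:133895833-133896132, minus strand: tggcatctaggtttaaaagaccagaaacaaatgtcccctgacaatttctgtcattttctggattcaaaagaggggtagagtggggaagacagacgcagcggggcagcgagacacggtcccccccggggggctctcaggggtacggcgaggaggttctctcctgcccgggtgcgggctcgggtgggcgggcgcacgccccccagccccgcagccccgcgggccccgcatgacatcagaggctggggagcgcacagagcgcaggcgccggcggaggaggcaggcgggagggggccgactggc
RAB21 promoter, chr12:71754613-71754912, plus strand: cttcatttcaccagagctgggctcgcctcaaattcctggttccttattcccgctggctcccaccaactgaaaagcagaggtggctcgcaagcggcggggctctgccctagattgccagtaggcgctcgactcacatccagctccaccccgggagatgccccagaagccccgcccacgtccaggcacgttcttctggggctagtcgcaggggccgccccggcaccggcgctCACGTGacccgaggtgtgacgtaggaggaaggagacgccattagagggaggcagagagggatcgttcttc
RAB17 promoter, chr2:237590685-237590984, minus strand: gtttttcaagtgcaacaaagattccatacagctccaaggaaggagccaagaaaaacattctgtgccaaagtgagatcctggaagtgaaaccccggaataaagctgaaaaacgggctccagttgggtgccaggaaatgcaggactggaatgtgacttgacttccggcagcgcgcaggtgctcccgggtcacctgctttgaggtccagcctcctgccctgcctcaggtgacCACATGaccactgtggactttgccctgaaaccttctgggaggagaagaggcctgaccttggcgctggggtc
CACGTG was found in 6 of 51 RAB promoters (11.8%), those of RAB21, RAB24, RAB29, RAB31, RAB4A and RAB5A, against 7.26% of 35116 promoters of all genes. CATGTG was found in 4 (7.84%) against 11.1%, and TGANTCA in 3 (5.88%) against 7.71%. Each motif was counted separately, and a promoter counts once for a motif however many matches it holds. The median GC content was 65.0% over the RAB promoters and 58.7% over all promoters. A match describes these letters only, and no binding was measured.

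**Figure D4:**
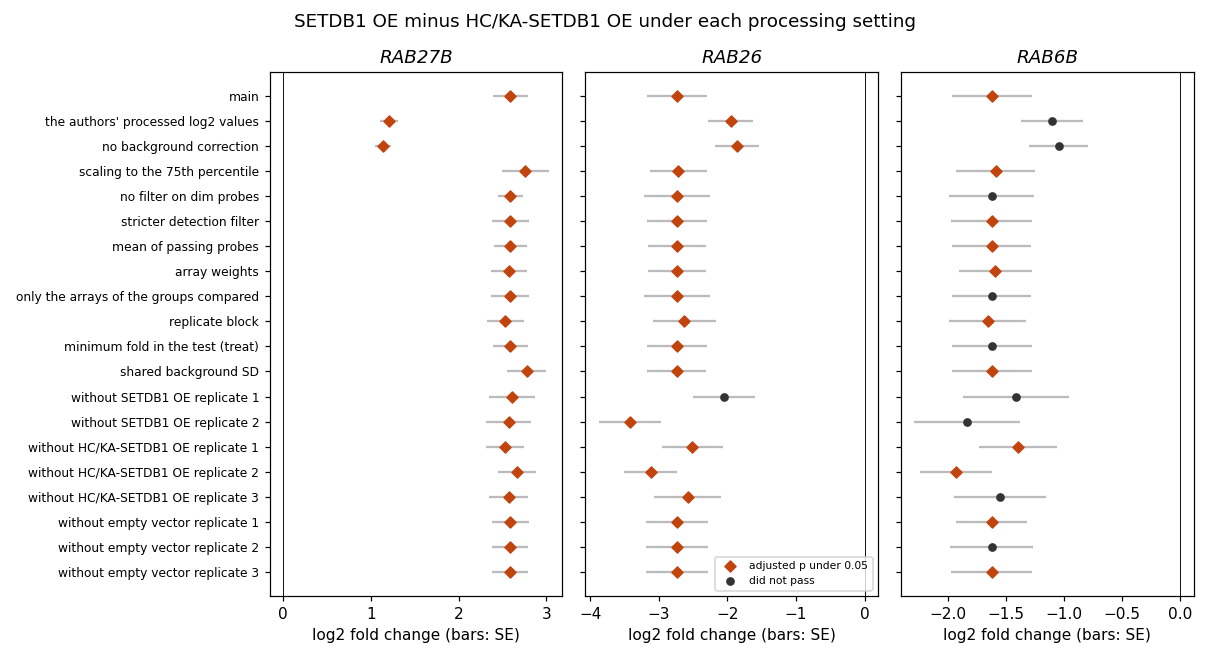
Log2 fold change of RAB27B, RAB26 and RAB6B in SETDB1 OE minus HC/KA-SETDB1 OE (x axis, scaled per gene) under the reported setting (main) and 19 alternatives (rows). Bars are SEs, diamonds passed at an adjusted p under 0.05 and circles did not. RAB27B passed in all, RAB26 in 18 and RAB6B in 10 of the 19 alternatives, and no value changed sign.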

How the data were processed

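RNA of 8 HT144 samples was measured, 1 bead array each, and groups were taken from the sample titles. Per the file headers, the authors deposited a non-normalized intensity and a detection p-value for each probe and array, and a processed log2 value, which matched quantile-normalized log2 intensities with no background correction visible and served as an alternative only. No source used here names the scanner software. Intensities were corrected and normalized here with neqc in limma 3.58.1 (R 4.3.3), with the background taken from the detection p-values and an offset of 16. The file holds 48107 probes, of which 5 lack a value and were dropped, and 26689 passed the detection filter (p under 0.05 in 2 arrays or more). In the platform annotation, 30110 probes have 1 symbol and 8 have several. The 17984 probes it leaves out stayed unnamed. A gene was read from its passing probe of highest mean.

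Groups were compared with limma (lmFit, contrasts.fit, eBayes) on all 8 arrays, two-sided, with Benjamini-Hochberg adjustment over 13974 genes, and the steps were tested on simulated data. All RAB symbols matched RefSeq genes (GRCh38.p14). The number of arrays limits the precision. A gene undetected throughout a group has its fold given as a bound, against the lowest signal among detected probes. That bound concerns detection only and does not allow for the spread among arrays. Members and gene lists were chosen with earlier results of these data known. The genes named were RAB27A, RAB27B, RAB32, RAB38, RAB26, RAB7A and SETDB1, every called RAB gene, the 10 RAB genes of smallest p in each comparison and up to 3 genes of each partner list. Others stand as members of a count, a role group or a marker list and were chosen after their values were seen.

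Replicate numbers of the labels were checked for pairing. Deviations from group means correlated at 0.46, 0.19 and 0.15 between same-numbered HC/KA-SETDB1 OE and empty vector arrays. Differently numbered pairs of these groups ranged from -0.46 to 0.36, the highest for HC/KA-SETDB1 OE replicate 2 with empty vector replicate 3. Pairing is therefore not settled there, and the replicate block served as an alternative only. Deviations correlated at 0.15 and 0.12 for same-numbered SETDB1 OE and empty vector arrays. For SETDB1 OE with HC/KA-SETDB1 OE they correlated at 0.12 and 0.03. These are 2 pairs each and do not settle pairing. Plotting used Python 3.11.15 and matplotlib 3.10.9.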

Additional observations from a re-analysis of the deposited data

Results flagged for a closer look

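For 3 RAB genes the effect of SETDB1 OE differed from that of HC/KA-SETDB1 OE, both against empty vector, by the direct test between the overexpressing groups (limma). The difference was 2.59 for RAB27B (adjusted p = 0.000224), where both SETDB1 OE arrays were above and all 3 HC/KA-SETDB1 OE arrays below empty vector. It was -2.74 for RAB26 (adjusted p = 0.0104), where the groups lay on opposite sides of empty vector. It was -1.63 for RAB6B (adjusted p = 0.0298), where HC/KA-SETDB1 OE overlapped with empty vector.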

How the results depend on the processing

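Under 19 alternatives, the direction of RAB27B, RAB26 and RAB6B in SETDB1 OE vs HC/KA-SETDB1 OE never changed. The count of called RAB genes in SETDB1 OE vs empty vector was 1, and it was 3 with array weights, 2 with only the arrays of the groups compared and 1 to 2 when single arrays were left out. In HC/KA-SETDB1 OE vs empty vector it was 0 throughout, leave-one-out fits included. In SETDB1 OE vs HC/KA-SETDB1 OE it was 3, and it was 6 with array weights and 1 to 6 when single arrays were left out, with 1 without SETDB1 OE replicate 1 and 6 without HC/KA-SETDB1 OE replicate 2. With the replicate number as a block it was 5, with RAB38 (-1.15, adjusted p = 0.0494) and RAB7B (1.55, adjusted p = 0.0155) added, where pairing is not settled. The block changed no other RAB call. The median log2 fold change of the RAB genes was 0.053 in HC/KA-SETDB1 OE vs empty vector and 0.073 in SETDB1 OE vs HC/KA-SETDB1 OE with scaling to the 75th percentile. With single arrays left out it ranged over -0.050 to 0.030 in SETDB1 OE vs empty vector, 0.046 to 0.18 in HC/KA-SETDB1 OE vs empty vector and -0.056 to 0.038 in SETDB1 OE vs HC/KA-SETDB1 OE.

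Signs turned only for small values that did not pass. RAB32 in SETDB1 OE vs empty vector was -0.052 with the replicate block and ranged over -0.017 to 0.42 with single arrays left out. RAB7A ranged there over -0.063 to 0.13. RAB38 ranged over -0.18 to 0.43 in HC/KA-SETDB1 OE vs empty vector. RAB27A in SETDB1 OE vs HC/KA-SETDB1 OE was -0.085 with the mean of passing probes and ranged over -0.037 to 0.63. The cause was not tested. The alternative with a shared background SD was chosen after seeing the data and changed no RAB call. Over all genes, the called count in SETDB1 OE vs empty vector was 37, and 11 to 155 under the alternatives. It was 45 and 2 to 255 in HC/KA-SETDB1 OE vs empty vector, and 606 and 41 to 1315 in SETDB1 OE vs HC/KA-SETDB1 OE. Signal near background limits RAB genes read by dim probes.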
